A study of Homo sapiens with 12 samples.

Results

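Genes that write, copy, read or remove DNA methylation are described here in cancer cells given an inhibitor of TEAD transcription factors. They were chosen by symbol, with no threshold on their values but with earlier results of these data known, and make up 10 of the 27064 gene symbols in the count tables: UHRF1, DNMT1, HELLS, UHRF2, DNMT3A, DNMT3B, TET1, TET2, TET3 and MBD4. All 10 have a row in both tables. The cells were NCI-H226 (H226), a mesothelioma line, and ACHN, a line from a kidney cancer, and the submitters describe both as deficient in NF2, an upstream activator of the Hippo kinases. The 4 groups were H226 with SWTX-143, H226 with DMSO, ACHN with SWTX-143 and ACHN with DMSO, each with 3 libraries of poly(A) RNA. SWTX-143, an irreversible TEAD inhibitor, was given at 100 nM overnight, and DMSO was its vehicle. Each tissue is represented by 1 established line, and no line with intact NF2 was used. The labels do not say whether replicates were separate cultures, so p-values cover only the spread among these libraries, and that spread may be technical.

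When DNA is replicated, the new strand lacks methyl groups, and the methylation pattern has to be copied onto it. UHRF1 binds hemimethylated CpG sites and recruits the maintenance methyltransferase DNMT1, while HELLS (LSH) remodels nucleosomes so that methylation can reach packed chromatin. DNMT3A and DNMT3B place methylation on unmodified DNA. TET1, TET2 and TET3 oxidise methylcytosine as a first step of its removal, and MBD4 is a glycosylase that excises thymine left by deamination of methylcytosine. No DNA methylation was measured, so all values below are RNA levels.

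In H226, RNA of the copying machinery was lower with SWTX-143 than with DMSO. UHRF1 fell most, DNMT1 and HELLS fell less, and TET2 rose slightly. In ACHN the call was made for DNMT1 alone, with a small decrease. The 3 genes that fell in H226 are shown first by the DNA at their start sites. In the windows searched, a single RefSeq start per gene, they are also the members with an exact string of the type bound by E2F. These strings were picked with the results known. E2F is the transcription factor family that switches on S phase genes, and its part in the falls was not tested. UHRF2, the paralogue of UHRF1 that was not called, is given for comparison. Each line runs 5′ to 3′ in the direction of transcription and covers 110 bases before the RefSeq start and 10 bases from it, and capitals mark the E2F-type strings.
UHRF1: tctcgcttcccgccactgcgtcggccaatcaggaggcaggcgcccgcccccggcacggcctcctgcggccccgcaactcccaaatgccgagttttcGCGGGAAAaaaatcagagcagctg
DNMT1: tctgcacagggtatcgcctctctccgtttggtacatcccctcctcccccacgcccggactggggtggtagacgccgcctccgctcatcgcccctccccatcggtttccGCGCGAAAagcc
HELLS: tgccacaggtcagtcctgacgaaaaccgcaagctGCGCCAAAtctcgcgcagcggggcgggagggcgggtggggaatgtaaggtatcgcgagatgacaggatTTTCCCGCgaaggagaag
UHRF2: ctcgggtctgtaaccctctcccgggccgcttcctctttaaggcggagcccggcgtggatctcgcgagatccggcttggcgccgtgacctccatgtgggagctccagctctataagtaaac
The windows lie at chr19:4909391-4909510 (plus strand) for UHRF1, chr19:10194944-10195063 (minus strand) for DNMT1, chr10:94545678-94545797 (plus strand) for HELLS and chr9:6413089-6413208 (plus strand) for UHRF2. Sequences and positions are RefSeq's on GRCh38.p14, whereas the counts were made on hg19 (GRCh37), and a gene can have further starts.

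The strings searched were TTTCCCGC, TTTGGCGC, TTTGCCGC and TTTCGCGC on both strands, over 250 bases before and 50 bases after each start. The UHRF1 string begins 14 bases before the start and is TTTCCCGC on the opposite strand. In DNMT1, TTTCGCGC on the opposite strand begins 2 bases before the start. HELLS has a pair, TTTGGCGC on the opposite strand 76 bases before the start and TTTCCCGC in the direction of transcription 8 bases before it. The other 7 members have none in this window, but a single RefSeq start was searched per gene, so strings at further starts would be missed. Near matches were not searched: UHRF2 holds cttggcgc, which differs from TTTGGCGC in its first base alone. The DNMT3B window (chr20:32779602-32779901) holds 3 CpG sites, beside a median of 14 over all promoters. It lies downstream of the annotated DNMT3B start at 32762385. The windows of UHRF1, DNMT1 and HELLS also lie inside the annotated bounds of their genes. Such a string is present in 3.3% of all 35116 promoters, in 5.4% of the 10088 promoters of genes tested in H226, and in 55.0% (11 of 20) of the promoters found for a list of G1/S and S phase genes. The TEAD-type string GGAATG, searched on both strands, was found in HELLS alone, 38 bases before the start, and is present in 14.0% of all promoters and 11.0% of those of tested genes. The cell cycle string TTTGAA or TTCGAA was found in TET2 alone, in 2 places, and is present in 16.4% of all promoters and 10.9% of those of tested genes. The strings were picked with the results known, and a match is a description of letters, not of binding.

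The libraries were alike in depth, with total counts of 9690980 to 11262663, and 1 count was worth 0.0844 to 0.110 CPM, the count scaled by library size. CPM used effective library sizes from TMM, a scaling that assumes that most genes do not change. Most, but not all, of the markers chosen for a tissue were present in its line. The summed level of 6 mesothelial markers was 3334 to 3582 CPM in H226 with SWTX-143 and 2835 to 2963 CPM in H226 with DMSO, against 152 to 160 CPM in ACHN with SWTX-143 and 183 to 186 CPM in ACHN with DMSO. That of 6 kidney epithelial markers was 16.2 to 18.0 CPM and 8.70 to 10.2 CPM in the same H226 groups, against 505 to 561 CPM and 495 to 513 CPM in the ACHN groups. PAX8 made most of the ACHN kidney sum (405 CPM with SWTX-143, 392 CPM with DMSO), while CUBN averaged 0.46 and 0.21 CPM and EMX2 had no count. LHX1 was also present in H226 (14.9 and 8.05 CPM). LRRN4 made most of the mesothelial sum in ACHN (149 and 177 CPM). Immune and endothelial markers summed to at most 3.75 and 1.30 CPM in any library. CTGF, the usual readout of TEAD activity, was 13.9 ± 1.22 CPM with SWTX-143 against 79.9 ± 7.44 CPM with DMSO in H226, and 21.0 ± 2.06 against 109 ± 1.48 CPM in ACHN (SD, n = 3 each). Replicate 3 of H226 with SWTX-143 differed most from its group. Its genes with over 8000 exon bases had a median log2 level 0.09 above the DMSO mean, against 0.02 and −0.04 in replicates 1 and 2, so the values of UHRF1, DNMT1, HELLS and the S phase genes in H226 are also given without it. Leaving it out changed no member's call in H226.

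UHRF1 (chr19:4903080-4962154, GRCh38) was at 25.4, 24.1 and 25.4 CPM in the 3 H226 libraries with SWTX-143, against 57.6, 58.9 and 57.9 CPM with DMSO. The groups were far apart and the libraries within each lay close together. The raw counts behind them were 257 to 271 with SWTX-143 and 526 to 619 with DMSO. UHRF1 fell 2.34-fold (log2 fold change −1.23 ± 0.07 SE, adjusted p = 3.45e-22, edgeR quasi-likelihood test with Benjamini-Hochberg adjustment over 13484 genes), which placed it at rank 48 by p among those genes. Without replicate 3 of the treated group, the log2 fold change was −1.24. In ACHN, UHRF1 was at 83.8, 84.4 and 83.4 CPM with SWTX-143 against 94.5, 87.1 and 88.3 CPM with DMSO. All treated libraries were below all DMSO libraries, but the difference did not pass the threshold (−0.12 ± 0.05, 95% interval −0.21 to −0.02, adjusted p = 0.0953, edgeR).

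DNMT1 (chr19:10133345-10231286, minus strand) was at 124, 115 and 136 CPM in H226 with SWTX-143, against 180, 184 and 186 CPM with DMSO. The treated libraries were all lower, with replicate 3 the highest of them. DNMT1 fell 1.48-fold (−0.56 ± 0.05, adjusted p = 2.22e-13, edgeR), or by 0.62 on the log2 scale without replicate 3. ACHN libraries had 237, 231 and 229 CPM with SWTX-143 against 242, 258 and 258 CPM with DMSO. Here the groups were separate by a narrow margin, and the decrease was called (−0.14 ± 0.04, adjusted p = 0.00748, edgeR). The ACHN call was lost without DMSO replicate 2 (−0.12, adjusted p = 0.0627) or without DMSO replicate 3 (−0.12, adjusted p = 0.0736).

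HELLS (chr10:94501434-94613905) was at 17.0, 16.0 and 17.2 CPM in H226 with SWTX-143, against 24.6, 21.9 and 22.0 CPM with DMSO. No treated library reached the lowest DMSO library. HELLS fell 1.37-fold (−0.46 ± 0.09, adjusted p = 4.05e-05, edgeR), and the log2 fold change was −0.48 without replicate 3. The ACHN values were 53.8, 62.8 and 59.8 CPM with SWTX-143 against 61.5, 62.6 and 56.4 CPM with DMSO. These groups overlapped (−0.05 ± 0.06, 95% interval −0.17 to 0.07, adjusted p = 0.626).

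UHRF2 (chr9:6413151-6507054), which resembles UHRF1 in domain structure, was at 18.2, 14.0 and 16.9 CPM in H226 with SWTX-143, against 18.4, 16.3 and 17.3 CPM with DMSO. The groups overlapped, and the log2 fold change of −0.10 ± 0.10 had a 95% interval of −0.30 to 0.10. In ACHN the means were 29.4 ± 0.62 CPM with SWTX-143 and 29.9 ± 0.73 CPM with DMSO (SD, n = 3 each), also overlapping, with an interval of −0.18 to 0.10.

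**Figure D1:**
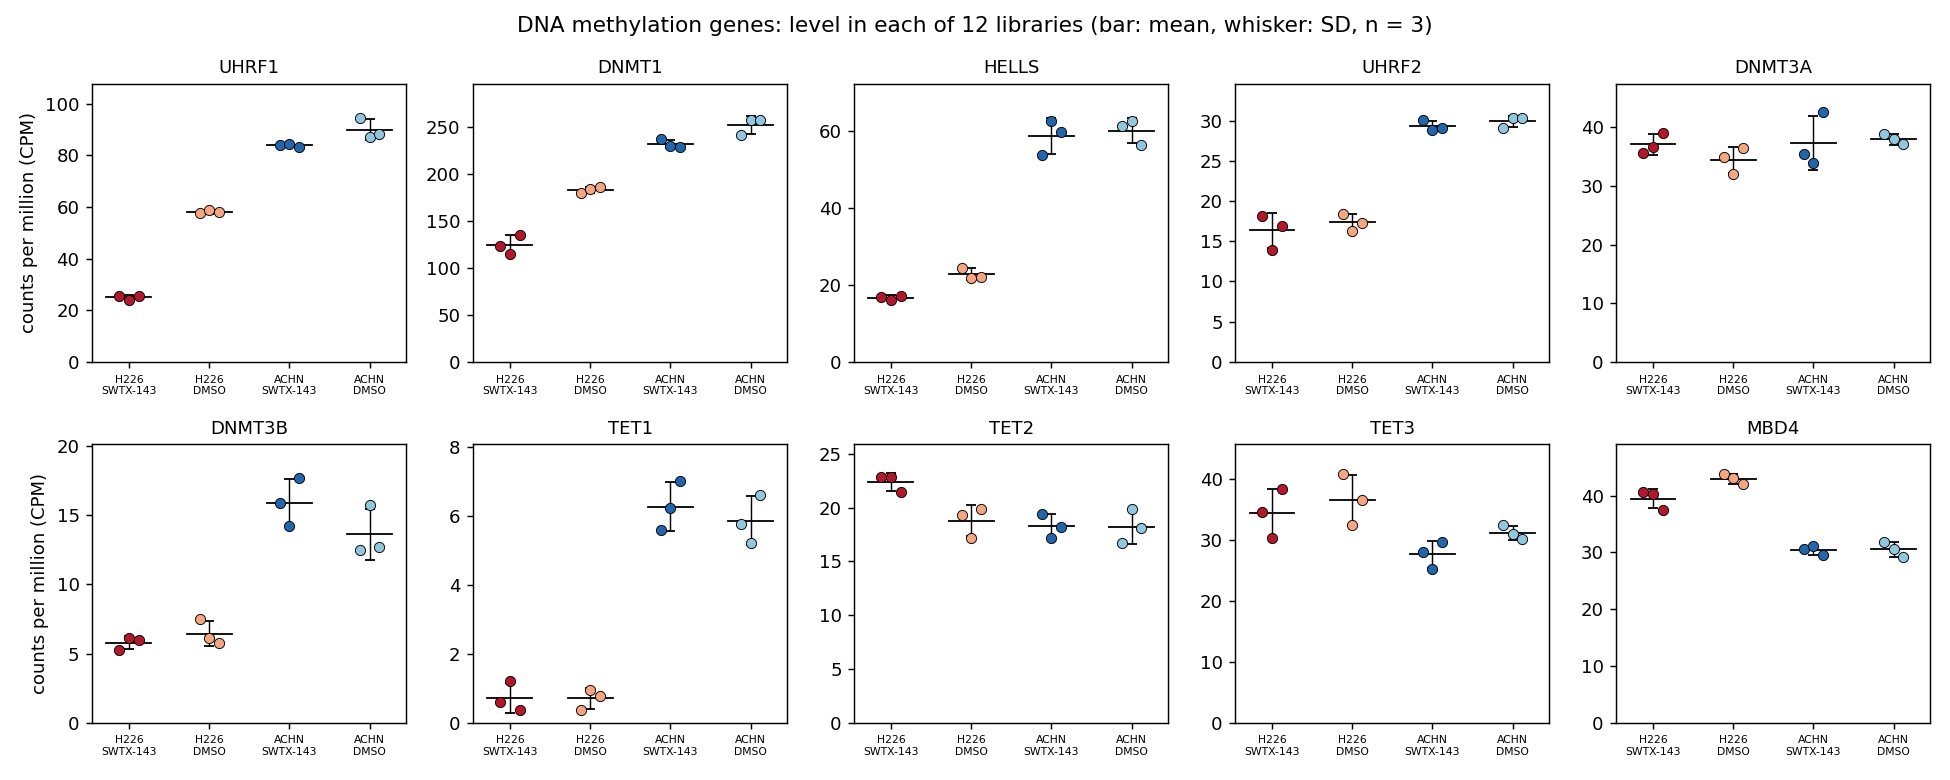
Level of each of the 10 genes in CPM (vertical axis, starting at 0) in H226 with SWTX-143, H226 with DMSO, ACHN with SWTX-143 and ACHN with DMSO. Points are libraries, bars are means and whiskers are SD (n = 3); the UHRF1 points of treated H226 lie at 24.1 to 25.4 CPM, all below those of DMSO at 57.6 to 58.9 CPM.

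The de novo methyltransferases were not called in either line. DNMT3A (chr2:25227855-25342590, minus strand) was at 35.6, 36.7 and 39.1 CPM in H226 with SWTX-143, against 34.9, 32.1 and 36.5 CPM with DMSO (0.10 ± 0.07, interval −0.04 to 0.24). In ACHN it was at 35.4, 34.0 and 42.6 CPM with SWTX-143 against 38.8, 37.9 and 37.1 CPM with DMSO (−0.04 ± 0.07, interval −0.18 to 0.10). In both lines the groups overlapped, and the ACHN libraries with SWTX-143 spread on either side of the DMSO ones. DNMT3B (chr20:32762385-32809356) was at 5.24, 6.14 and 6.00 CPM in H226 with SWTX-143, against 7.46, 6.09 and 5.73 CPM with DMSO, from 52 to 79 counts per library (−0.16 ± 0.16, interval −0.47 to 0.14). The ACHN levels were 15.9, 14.2 and 17.7 CPM with SWTX-143 against 12.5, 15.7 and 12.7 CPM with DMSO (0.21 ± 0.11, interval 0.01 to 0.42, adjusted p = 0.165, edgeR). One high DMSO library made these groups overlap, and without it, DMSO replicate 2, DNMT3B was called higher (0.33, adjusted p = 0.0468, edgeR).

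Among the oxidases, TET2 (chr4:105145875-105279816) was at 22.8, 22.9 and 21.5 CPM in H226 with SWTX-143, against 19.4, 17.1 and 19.8 CPM with DMSO. Every treated library was above every DMSO library, and TET2 rose 1.19-fold (0.25 ± 0.09, adjusted p = 0.0222, edgeR). This was the least secure of the H226 calls: it was lost with DESeq2 (0.26, adjusted p = 0.105) and without DMSO replicate 2 (0.18, adjusted p = 0.16), treated replicate 1 (0.23, adjusted p = 0.0651) or treated replicate 2 (0.23, adjusted p = 0.069). In ACHN, TET2 was at 19.4, 17.2 and 18.2 CPM with SWTX-143 against 16.7, 19.9 and 18.1 CPM with DMSO, which overlapped (−0.01 ± 0.09, interval −0.19 to 0.17).

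TET3 (chr2:73986404-74108176) was at 34.6, 30.3 and 38.3 CPM in H226 with SWTX-143, against 40.8, 32.5 and 36.6 CPM with DMSO, with overlapping groups (−0.10 ± 0.09, interval −0.27 to 0.07). In ACHN it was at 28.1, 25.2 and 29.7 CPM with SWTX-143 against 32.4, 31.1 and 30.1 CPM with DMSO. All treated ACHN libraries were lower, but the difference did not pass (−0.19 ± 0.08, adjusted p = 0.0805, edgeR) until treated replicate 3 was left out (−0.24, adjusted p = 0.0415). TET1 (chr10:68560656-68694482) had too few counts in H226 to be tested there, with 6, 13 and 4 counts with SWTX-143 against 4, 10 and 7 with DMSO. ACHN libraries had 5.57, 6.21 and 7.00 CPM with SWTX-143 against 5.77, 5.21 and 6.60 CPM with DMSO (0.08 ± 0.15, interval −0.22 to 0.37). The width of that interval, from 56 to 80 counts per library, is the largest of the members in ACHN.

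MBD4 (chr3:129430944-129440179, minus strand) was at 40.6, 40.4 and 37.5 CPM in H226 with SWTX-143, against 43.8, 43.0 and 42.1 CPM with DMSO. All treated libraries were lower, without passing the threshold (−0.13 ± 0.07, adjusted p = 0.103, edgeR). In ACHN it averaged 30.4 ± 0.80 CPM with SWTX-143 and 30.5 ± 1.32 CPM with DMSO (SD, n = 3 each), with overlapping libraries and an interval of −0.17 to 0.12. MBD4 is the only member that shares exon bases with another gene in the annotation, 144 bases with IFT122 on the opposite strand, and the strand setting of the counting is not given in the sources used here. IFT122 averaged 199 counts per library in H226 and 238 in ACHN, and its own log2 fold changes were 0.17 ± 0.09 and 0.11 ± 0.08, neither called.

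Counted together, 9 of the 10 members were tested in H226, of which 3 were lower and 1 higher. Of all tested H226 genes 21.6% were called lower and 19.0% higher, so calls were common in that line, and the members' counts of 3 and 1 of 9 are not far from that background. Their median log2 fold change was −0.13, beside 0.00 for all tested genes. In ACHN 10 members were tested, of which 1 was lower, where 9.37% of all tested genes were called lower, and 0 were higher, where 8.43% of all were called higher (edgeR). At an unadjusted p under 0.05 the ACHN numbers were 3 lower and 1 higher, and DESeq2 called 1 lower and 0 higher. What sets the H226 members apart from each other is size: the absolute log2 fold change was 1.23 for UHRF1, beside a median absolute change of 0.18 over all tested genes, and 0.10 to 0.16 for the 5 members not called.

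The effect in H226 was then tested against that in ACHN, as 1 contrast over all 12 libraries and 14664 genes. UHRF1 fell more in H226, by 1.12 ± 0.08 on the log2 scale (95% interval of the difference −1.28 to −0.96, adjusted p = 3.57e-19, edgeR), at rank 11 by p of all genes. DNMT1 differed by −0.43 ± 0.06 (adjusted p = 1.36e-07) and HELLS by −0.41 ± 0.11 (adjusted p = 0.00363). The difference for HELLS was not called without DMSO replicate 1 of H226 (−0.32, adjusted p = 0.058). These made 3 of 10 members called more negative in H226, where 9.70% of all genes were, and 0 called more positive, where 5.89% were. At an unadjusted p under 0.05 the counts were 4 and 0, and by DESeq2 3 and 0.

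For the rest, the difference was not called, and the intervals say what sizes remain possible. TET2 differed by 0.25 (interval −0.003 to 0.50, adjusted p = 0.201), so its H226 rise is not shown to be particular to that line. DNMT3B differed by −0.38 (interval −0.76 to −0.01, adjusted p = 0.18). UHRF2, DNMT3A, TET3 and MBD4 had differences of −0.11 to 0.13, with intervals that reached at most 0.33 in size. For TET1 the interval of −1.01 to 0.96 leaves a change of about that size undetectable at its counts in H226.

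**Figure D2:**
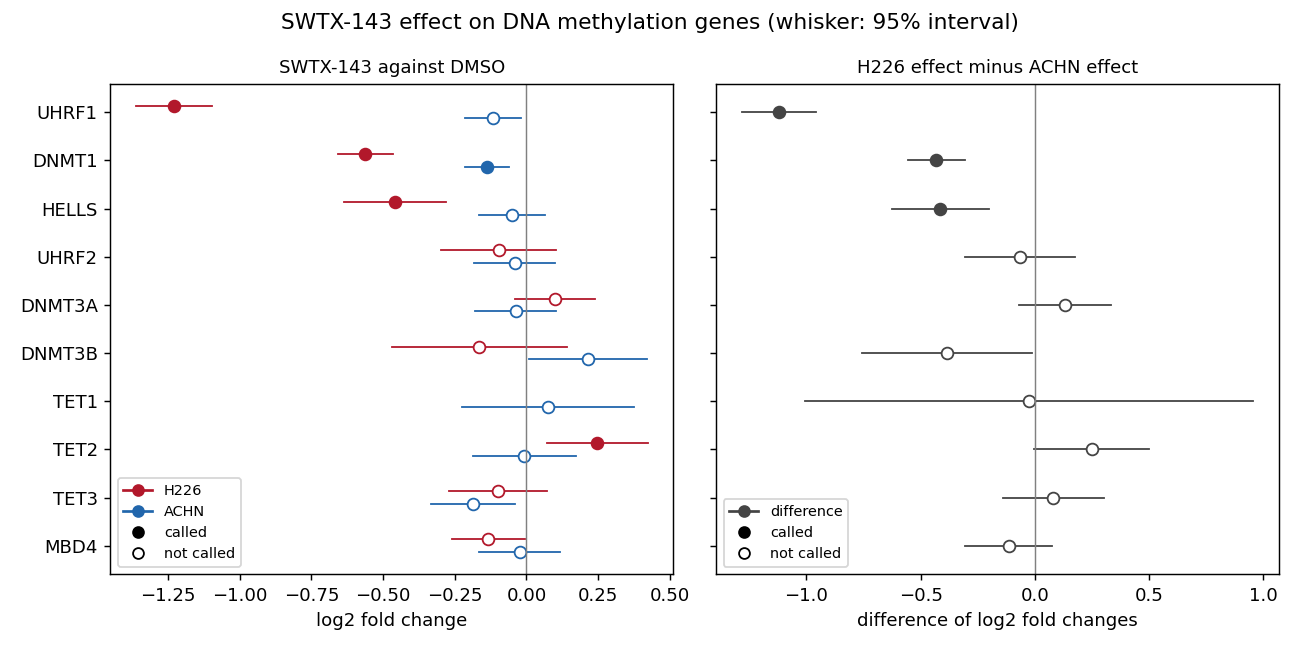
Left, log2 fold change of SWTX-143 against DMSO for each gene in H226 and in ACHN; right, the H226 effect minus the ACHN effect (horizontal axes, log2). Whiskers are 95% intervals (1.96 SE) and filled points passed an adjusted p of 0.05 in edgeR; UHRF1 in H226 stands at −1.23 with DNMT1 at −0.56 and HELLS at −0.46, and TET1 has no H226 point because it was not tested.

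Ratios taken inside a library do not depend on its scaling. The UHRF1 count was 1.40, 1.73 and 1.51 times the UHRF2 count in H226 with SWTX-143, against 3.13, 3.62 and 3.35 times with DMSO. UHRF1 thus stayed the more counted of the paralogues in every library, by a margin that was narrower in each treated one. In ACHN the ratio averaged 2.86 ± 0.07 with SWTX-143 and 3.01 ± 0.21 with DMSO (SD, n = 3 each), with overlap. DNMT1 made up 82.9 ± 1.06% of the 3 DNMT RNAs per kilobase in H226 with SWTX-143 and 88.0 ± 0.78% with DMSO, while the DNMT3A share was 12.5 ± 0.56% and 8.41 ± 0.49% (SD, n = 3 each). The ACHN shares of DNMT1 were 86.0 ± 1.50% with SWTX-143 and 87.7 ± 0.63% with DMSO, with no overlap between 84.3 to 87.2% and 87.2 to 88.4%, though the nearest libraries differed by less than 0.1 points.

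The summed TET level over the summed DNMT level, per kilobase, was 0.167, 0.163 and 0.159 in H226 with SWTX-143, against 0.128, 0.106 and 0.117 with DMSO. The treated libraries were all higher. In ACHN this ratio was 0.0858 ± 0.0044 with SWTX-143 and 0.0855 ± 0.0032 with DMSO (SD, n = 3 each), with overlap. For these 3 ratios the exact two-sided permutation test gave p = 0.1 in H226 each time, the smallest that 3 against 3 allows, and 0.15 adjusted over the 6 tests run, so the design cannot place any of them under 0.05. In ACHN the exact p was 0.3 for the UHRF1 to UHRF2 ratio, 0.1 for the DNMT1 share and 1 for the TET to DNMT ratio, or 0.36, 0.15 and 1 adjusted.

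**Figure D3:**
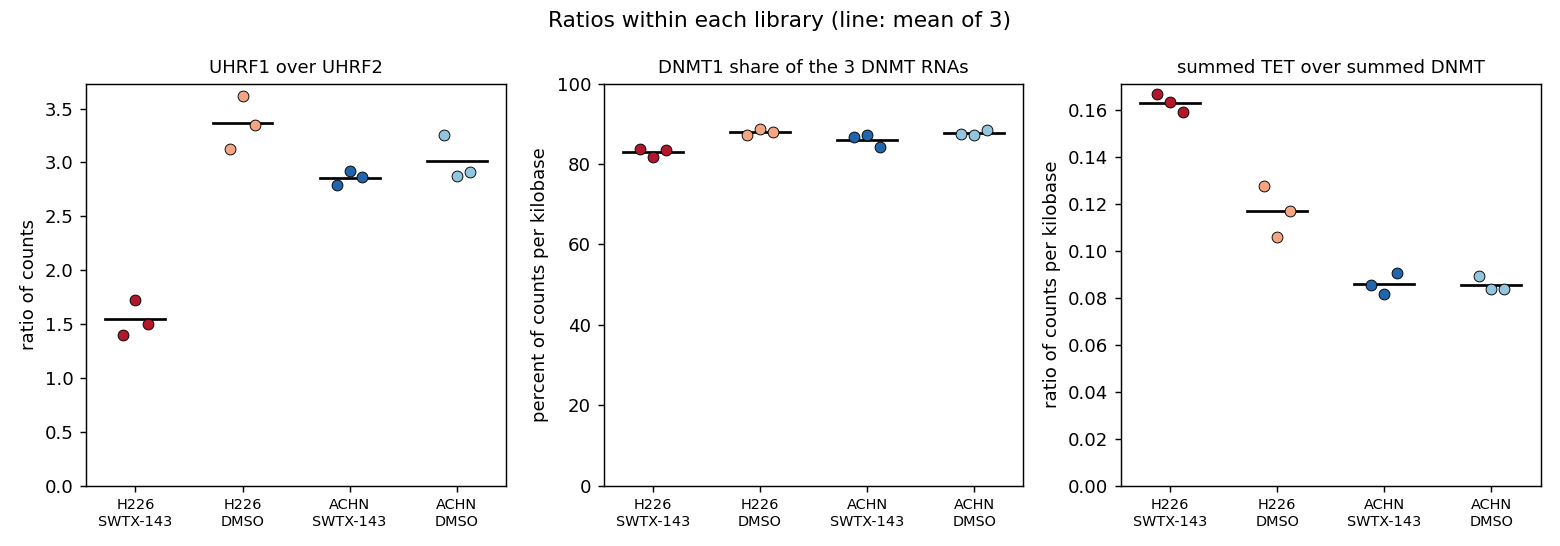
Ratios inside each library: UHRF1 count over UHRF2 count, DNMT1 as a percentage of the 3 DNMT RNAs per kilobase, and summed TET over summed DNMT per kilobase (vertical axes start at 0), by group. Points are libraries and lines are means of 3; treated H226 lies apart from DMSO in each panel, with UHRF1 over UHRF2 at 1.40 to 1.73 against 3.13 to 3.62.

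Without the inhibitor, the lines already differed in this machinery. In H226 with DMSO, 6 of 10 members were lower than in ACHN with DMSO, where 42.2% of all genes were lower, and 2 were higher, where 42.2% of all were higher (edgeR). The share of members called is thus near that of all genes. TET1 was the furthest apart, at 0.700 ± 0.294 CPM in H226 against 5.86 ± 0.700 CPM in ACHN (SD, n = 3 each; log2 fold change −3.06 ± 0.27, adjusted p = 1.37e-17). HELLS was at 22.8 ± 1.50 CPM in H226 against 60.2 ± 3.28 CPM in ACHN (−1.39 ± 0.07), and DNMT3B at 6.43 ± 0.91 against 13.6 ± 1.82 CPM (−1.07 ± 0.13). UHRF2 (−0.79 ± 0.09), UHRF1 (−0.63 ± 0.05) and DNMT1 (−0.46 ± 0.04) were also lower in H226. The genes higher in H226 were MBD4 (0.49 ± 0.07, adjusted p = 6.37e-10) and TET3 (0.23 ± 0.08, adjusted p = 0.00618). DNMT3A (−0.14 ± 0.07, adjusted p = 0.0693) and TET2 (0.04 ± 0.09, adjusted p = 0.678) were not called. Each line is a table of its own, so line and table cannot be told apart, and scaling by library size alone moves the median of all genes by −0.16. Under that scaling TET3 was no longer called (0.07) and DNMT3A was called lower (−0.30). With an offset for transcript length, TET2 was called higher in H226 (0.32, adjusted p = 0.00116) and DNMT3A turned to 0.02.

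Per kilobase of exon, the unit in which genes can be set beside each other, DNMT1 was the most abundant of the 10 in all 4 groups, at 22.9 ± 1.87 CPM per kilobase in H226 with SWTX-143, 33.6 ± 0.58 in H226 with DMSO, 42.6 ± 0.83 in ACHN with SWTX-143 and 46.3 ± 1.77 in ACHN with DMSO. In H226 with SWTX-143 it was followed by MBD4 (13.3 ± 0.59), HELLS (5.02 ± 0.20), UHRF1 (4.85 ± 0.15), UHRF2 (4.30 ± 0.57), DNMT3A (3.46 ± 0.17), TET3 (3.00 ± 0.35), TET2 (1.42 ± 0.05), DNMT3B (1.25 ± 0.10) and TET1 (0.0781 ± 0.0466). HELLS and UHRF1 differed there by less than the SD of HELLS, and UHRF1 and UHRF2 by less than the SD of UHRF2. In H226 with DMSO, MBD4 (14.5 ± 0.29) was followed by UHRF1 (11.3 ± 0.13), HELLS (6.84 ± 0.45), UHRF2 (4.56 ± 0.28), DNMT3A (3.21 ± 0.21), TET3 (3.19 ± 0.36), DNMT3B (1.39 ± 0.20), TET2 (1.19 ± 0.09) and TET1 (0.0754 ± 0.0316). UHRF1 thus stood clear of HELLS with DMSO and not with SWTX-143, while DNMT3A and TET3, and DNMT3B and TET2, did not differ beyond their spread. In ACHN with SWTX-143, DNMT1 was followed by HELLS (17.6 ± 1.37), UHRF1 (16.3 ± 0.10), MBD4 (10.2 ± 0.27) and UHRF2 (7.73 ± 0.16). In ACHN with DMSO the next were HELLS (18.0 ± 0.98), UHRF1 (17.5 ± 0.77), MBD4 (10.3 ± 0.44) and UHRF2 (7.87 ± 0.19). HELLS and UHRF1 did not differ beyond their spread in either ACHN group.

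The genes that work with the members were followed through lists written from general knowledge. Of 10 partners of maintenance methylation, 6 were lower and 2 higher in H226, with a median log2 fold change of −0.24 beside 0.00 for all genes. Among all tested genes, 21.6% were lower and 19.0% higher in H226, and 9.37% and 8.43% in ACHN. CDCA7, which recruits HELLS to chromatin, fell (−0.94 ± 0.08, adjusted p = 5.39e-14), as did CHAF1A, the large subunit of the replication-coupled histone chaperone (−0.75 ± 0.06, adjusted p = 8.81e-15). PCNA, the replication clamp that binds DNMT1, fell (−0.51 ± 0.06, adjusted p = 1.28e-10), and so did LIG1, the ligase that joins Okazaki fragments and is bound by UHRF1 (−0.47 ± 0.06, adjusted p = 9.45e-09). The effect on CDCA7, CHAF1A, PCNA and LIG1 was more negative in H226 than in ACHN (differences of −1.01, −0.63, −0.53 and −0.43, adjusted p at most 1.64e-05). In ACHN 1 of the 10 was lower, USP7, the deubiquitinase that stabilises UHRF1 and DNMT1 (−0.13 ± 0.04, adjusted p = 0.0172), and 0 were higher by edgeR, also 0 at an unadjusted p under 0.05 and 0 by DESeq2.

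These falls stood beside a broad decrease of S phase genes. All 24 genes of a G1/S and S phase list were lower in H226 (24 of 24 also by DESeq2 and without replicate 3 of the treated group), with a median of −0.61. The share of all tested genes called lower was 21.6% in H226 and 9.37% in ACHN, and 8.43% were higher in ACHN. CDC6, the origin licensing factor, fell by 1.03 ± 0.06 on the log2 scale, and the helicase subunits MCM2, MCM3 and MCM4 by 0.81, 0.77 and 0.69. In ACHN 2 of the 24 were lower and 1 higher with a median of −0.03, and DESeq2 called none in either direction. CDC6 (−0.14 ± 0.04) and RRM2 (−0.12 ± 0.04) were the lower ones there. For 23 of 24, the effect was called more negative in H226 than in ACHN, or 21 without replicate 3 of treated H226. Of all genes 9.70% were called so. RRM1 went the same way without being called (−0.11, adjusted p = 0.282, edgeR). The list's summed level was 1462 to 1532 CPM in H226 with SWTX-143 and 2086 to 2195 CPM with DMSO, against 2670 to 2847 and 2814 to 2847 CPM in ACHN. In bulk RNA, fewer cells in S phase and less RNA per cell cannot be told apart, and the part of cell cycle position in the falls of UHRF1, DNMT1 and HELLS was not tested.

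Set against that list, UHRF1 is at its low end. Of the 24, CCNE1 alone, which encodes cyclin E1, had a more negative log2 fold change in H226 (−1.33). There 16 were more negative than DNMT1 and 17 more negative than HELLS. In ACHN, where the list median was −0.03, 3 were more negative than UHRF1, 1 than DNMT1 and 11 than HELLS. As a share of the list's summed counts, UHRF1 was 1.67 ± 0.06% in H226 with SWTX-143 and 2.73 ± 0.05% with DMSO, and 3.03 ± 0.08% and 3.18 ± 0.12% in ACHN (SD, n = 3 each). So UHRF1 was lower in treated H226 also relative to the summed counts of these S phase genes, without overlap between libraries. That sum is weighted to abundant genes: RRM1, the highest of the list in treated H226 (344 CPM), fell least (−0.17). Of 20 genes of G2 and mitosis, 5 were lower and 2 higher in H226 (median −0.07), where 21.6% and 19.0% of all tested genes were. In ACHN 7 were lower and 0 higher by edgeR (median −0.08), where 9.37% and 8.43% of all were. At an unadjusted p under 0.05 the ACHN counts were 8 and 1, and by DESeq2 6 and 0. ANLN, a scaffold of the cytokinetic ring, fell in both (−0.55 ± 0.04 in H226, −0.26 ± 0.03 in ACHN). The mitotic kinase AURKB fell by 0.30 in H226 and 0.19 in ACHN, CCNA2 by 0.30 in H226, and CDC20 and TOP2A by 0.27 and 0.15 in ACHN, while the kinesin KIF20A rose in H226 (0.21 ± 0.04).

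**Figure D4:**
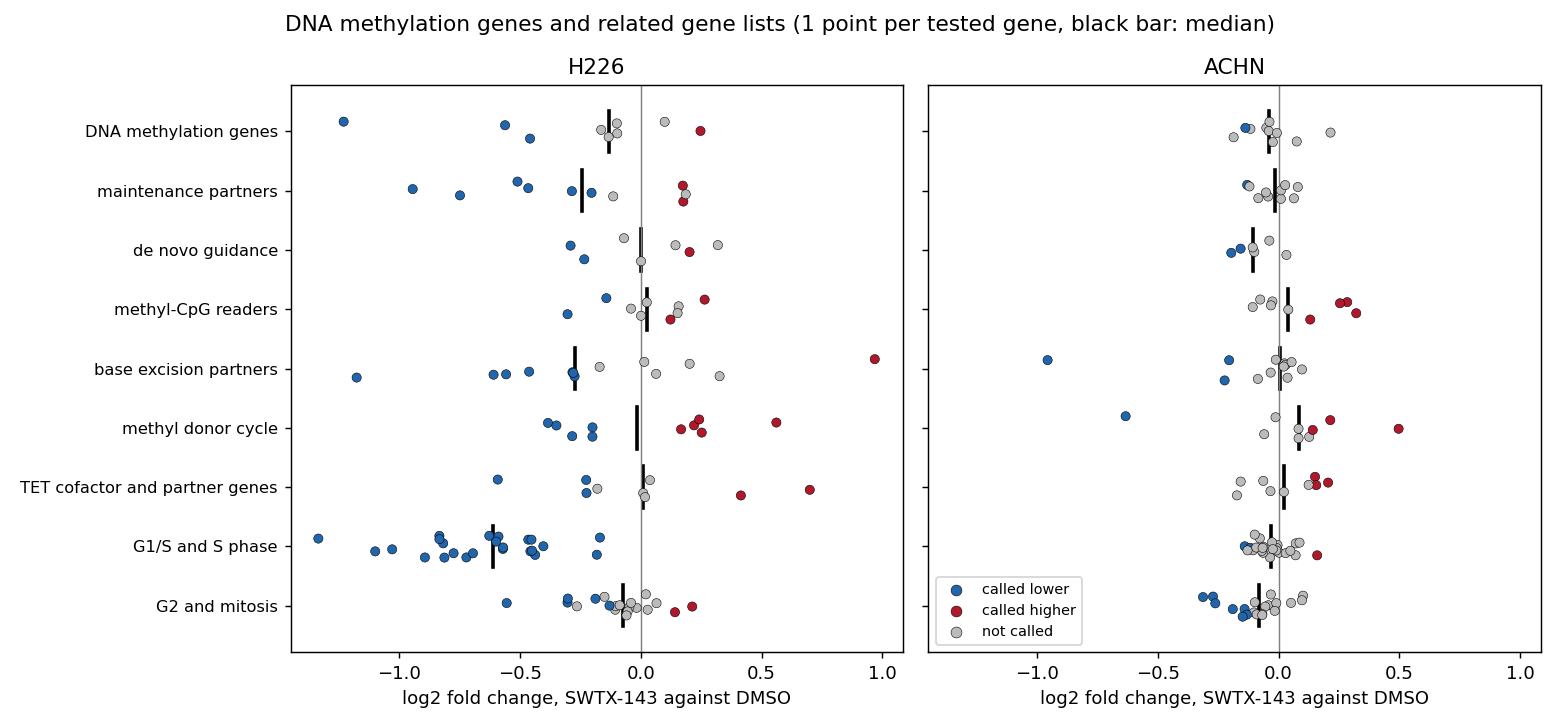
Log2 fold change of SWTX-143 against DMSO (horizontal axis) of each tested gene in the member set and in 8 related lists, H226 left and ACHN right, coloured by call in edgeR. Black bars are list medians; the 24 G1/S and S phase genes of H226 all lie below 0 with a median of −0.61, against −0.03 in ACHN.

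Genes of DNA repair act after methylcytosine oxidation or deamination. Of 13 base excision partners in H226, 7 were lower and 1 higher (median −0.27), where 21.6% and 19.0% of all genes were, and 5 did not pass. DESeq2 called 5 lower and 1 higher, and leaving out treated replicate 3 gave 6 lower and 1 higher. GADD45B and GADD45A, stress-induced proteins linked to active demethylation, fell by 1.18 ± 0.06 and 0.61 ± 0.06 on the log2 scale in H226 and by 0.96 ± 0.08 and 0.22 ± 0.05 in ACHN. GADD45G, of the same family, went the other way in H226 (0.97 ± 0.27, adjusted p = 0.00261, edgeR). Its level there was low, at 2.89 ± 0.56 CPM with SWTX-143 and 1.48 ± 0.35 CPM with DMSO, and it was not tested in ACHN. The uracil glycosylase UNG fell in H226 (−0.56 ± 0.06, adjusted p = 2.3e-10), and TDG, the glycosylase that removes the products of TET oxidation, fell in H226 (−0.46 ± 0.06) and in ACHN (−0.20 ± 0.07). For UNG (−0.59), GADD45A (−0.39) and TDG (−0.26) the effect was more negative in H226 (adjusted p of the difference at most 0.0302), and for GADD45B it was not called (−0.23, adjusted p = 0.15). In ACHN 3 of 12 tested were lower and 0 higher, where 9.37% and 8.43% of all tested genes were. Also 0 were higher at an unadjusted p under 0.05 and by DESeq2.

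Among TET cofactors and partners, 3 of 9 were lower and 2 higher in H226, where 21.6% and 19.0% of all genes were, and DESeq2 called 1 lower and 2 higher. Leaving out treated replicate 3 gave 2 lower and 2 higher. In ACHN 0 were lower and 3 higher by edgeR, where 9.37% and 8.43% of all tested genes were. At an unadjusted p under 0.05 the ACHN counts were 1 and 3, and by DESeq2 0 and 2. IDH1, a cytosolic source of the 2-oxoglutarate that TET enzymes use, rose in H226 (0.70 ± 0.05, adjusted p = 1.58e-17) and in ACHN (0.15 ± 0.04), more in H226 (difference 0.54, adjusted p = 5.54e-10). The mitochondrial subunits IDH3A (−0.59 ± 0.06) and IDH3B (−0.22 ± 0.07) fell in H226, and IDH2 rose in ACHN (0.16 ± 0.05). CXXC5, a CXXC zinc finger protein that binds unmethylated CpG, rose in H226 (0.41 ± 0.06) and in ACHN (0.20 ± 0.06), and that difference was not called (adjusted p = 0.0704). IDH3A overlaps ACSBG1, which averaged 2.2 counts.

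In the methyl donor cycle, 5 of 10 genes were lower and 5 higher in H226, and 1 of 9 lower and 3 higher in ACHN. Of all tested genes, 21.6% were lower and 19.0% higher in H226, and 9.37% and 8.43% in ACHN. Methionine synthase (MTR, −0.38 ± 0.07) and AHCY, which clears the inhibitor S-adenosylhomocysteine (−0.20 ± 0.04), fell in H226, and AHCYL1 rose (0.24 ± 0.04, and 0.14 ± 0.04 in ACHN). NNMT, which consumes methyl groups to methylate nicotinamide, fell in ACHN (−0.63 ± 0.04, adjusted p = 6.89e-18) and rose in H226 (0.17, adjusted p = 0.000391), with a difference between the lines of 0.79 (adjusted p = 3.51e-19). AHCYL2 rose in H226 (0.25 ± 0.08) and in ACHN (0.21 ± 0.08), and that difference was not called (0.03, adjusted p = 0.913, edgeR).

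Of 7 tested genes that guide de novo methylation, 2 were lower and 1 higher in H226 (3 and 1 without treated replicate 3), where 21.6% and 19.0% of all tested genes were. In ACHN 2 of 6 were lower and 0 higher by edgeR, where 9.37% and 8.43% of all were. At an unadjusted p under 0.05 the ACHN counts were 4 and 0, and by DESeq2 2 and 0. TRIM28, the corepressor that recruits methylation to repeats, fell in H226 (−0.29 ± 0.04) and in ACHN (−0.16 ± 0.04). The histone demethylases KDM1A (−0.23 ± 0.05) and KDM1B (0.20 ± 0.06) moved in opposite directions in H226, and the H3K36 methyltransferase NSD1 fell in ACHN (−0.20 ± 0.06). Of 9 methyl-CpG readers and MBD family relatives (MBD3, MBD5 and MBD6), 2 were lower and 2 higher in H226 by edgeR. That stood beside the same shares of all tested genes, and DESeq2 called 1 lower and 1 higher. In ACHN 0 were lower and 4 higher (edgeR; 0 and 4 at an unadjusted p under 0.05, 0 and 2 by DESeq2). MBD3 (−0.30 ± 0.05) and MBD2 (−0.14 ± 0.05), which belong to the NuRD corepressor, fell in H226. The zinc finger readers ZBTB38 (0.25 ± 0.04) and ZBTB33 (0.28 ± 0.08) rose in ACHN with MBD5 (0.32 ± 0.08) and ZBTB4 (0.13 ± 0.05). In H226, ZBTB4 was at the limit of a call (0.12 ± 0.05, adjusted p = 0.05 after rounding), with overlapping libraries at 111 to 125 CPM with SWTX-143 and 102 to 114 CPM with DMSO. MBD6 rose in H226 (0.26 ± 0.05). MBD5 and MBD6 each overlap a gene with more counts on the opposite strand (ORC4 and DCTN2).

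Germline genes that promoter methylation keeps silent in most somatic cells were also followed, as RNA levels only. Of 21, 13 were listed at 0 in all 3 H226 libraries with SWTX-143, and 13 in all 3 with DMSO. Their summed level was 3.53 to 4.74 CPM with SWTX-143 and 3.63 to 5.67 CPM with DMSO in H226, which overlap. In ACHN it was 58.2 to 62.8 CPM with SWTX-143 and 55.7 to 58.4 CPM with DMSO, nearly all of it the cancer-testis gene PRAME (53.2 ± 2.52 and 50.5 ± 1.31 CPM, SD, n = 3 each; 0.06 ± 0.06, adjusted p = 0.541), which had no count in any H226 library. In ACHN, 15 of the 21 were at 0 in all libraries with SWTX-143 and 14 in all with DMSO. By edgeR 0 of the 1 tested in H226 and 0 of the 3 tested in ACHN were called, also 0 at an unadjusted p under 0.05 and by DESeq2. With so few genes tested after overnight treatment, these counts cannot say whether methylation was kept or lost. At this depth a library with no count can still hide up to 0.330 CPM of a gene, taking 3 counts as the limit, which covers counting error only.

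The 4 YAP/TEAD readouts CTGF, CYR61, ANKRD1 and AMOTL2 fell in both lines, with log2 fold changes of −2.53 to −0.83 in H226 and −2.39 to −1.19 in ACHN. UHRF1 and HELLS were not called in ACHN, with 95% intervals of −0.21 to −0.02 and −0.17 to 0.07. DNMT1 was called lower there (−0.14 ± 0.04, adjusted p = 0.00748, edgeR). The relation between these readouts and the members was not tested. For CTGF the effect did not differ between lines beyond error (−0.15 ± 0.11, adjusted p = 0.414, edgeR). It was more negative in H226 for ANKRD1 (−0.71 ± 0.20) and less negative for AMOTL2 (0.36 ± 0.06).

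Finally, the genes with a pattern most like UHRF1 and DNMT1 were sought over the 12 libraries, as the smallest root-mean-square difference of log2 CPM after centring each line, among 9899 genes with at least 5 CPM in each group. For UHRF1 they were CTPS1, which makes CTP (0.06), the ribosome assembly factor RRS1 (0.08), CDC6 (0.08), the replication helicase component GINS2 (0.08) and the kinase MOK (0.08), beside a median of 0.43 over all genes. For DNMT1 they were RAB3B, AKAP12, RANBP1, POLE and URB1 (each 0.05), beside a median of 0.22. The log2 fold changes of the first 5 were −1.24 to −1.03 in H226 and −0.29 to −0.09 in ACHN. HELLS was at rank 439 by likeness to DNMT1 (0.10), and DNMT1 at rank 246 by likeness to UHRF1 (0.24). In the other direction UHRF1 was at rank 5947 by likeness to DNMT1, at the same distance and beyond the median for DNMT1. All of these share libraries and depth, and the measure is a description.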

How the data were processed

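Poly(A) RNA of 12 libraries (2 lines, 3 per group) was read on a BGISEQ-500 as paired reads, per the labels' protocols. The authors deposited raw counts per gene symbol, 1 table per line; FastQC, cutadapt, STAR 2.6.1d and hg19 (GRCh37) are named in the submitters' processing notes. The counting program, strand setting, multi-mapping and annotation were not stated in any source used here, so reads of overlapping genes or near-identical copies may be split or shared.

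From these counts, edgeR 4.0.16 in R 4.3.3 (filterByExpr, TMM, robust quasi-likelihood F test, Benjamini-Hochberg over all tested genes, limit 0.05) fitted each line on its 6 libraries, and the differences between lines on all 12. SE were the log2 fold change over the square root of F, and intervals 1.96 SE. Exon lengths are GENCODE 29 on GRCh38, found for 95.2% of tested genes in H226 and 94.9% in ACHN. Replicate pairs differed by 1.34 to 3.27 chi-square per degree of freedom, so none was a copy. Scripts were tested on simulated data.

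The members, lists and tests were chosen with earlier results of these data known. Named are all members, up to 4 called genes of each list and line with the smallest p, and the 5 genes most like UHRF1 and DNMT1. CCNE1, GADD45G and the single tissue markers were chosen after their values were seen. Some genes that this rule names are not reported here. The lists are maintenance partners, de novo guidance, methyl-CpG readers with MBD family relatives, base excision partners, methyl donor cycle, TET cofactors and germline genes. Also listed are G1/S, G2 and mitosis, YAP/TEAD readouts and markers of 4 cell types. Alternatives were other scalings, filters, DESeq2 1.42.0, a transcript length offset, a replicate block and leaving out each library; list counts without 1 H226 library were added after seeing the data.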

Additional observations from a re-analysis of the deposited data

Results flagged for a closer look

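The effect of SWTX-143 differed between the lines, by a test of the difference itself, for 3 of the 10 genes. Of all 14664 genes tested, 9.70% were called more negative in H226 and 5.89% more positive. UHRF1 fell more in H226 than in ACHN (difference of log2 fold changes −1.12), as did DNMT1 (−0.43) and HELLS (−0.41). In each case the treated H226 libraries were all below the H226 DMSO libraries. The HELLS difference was not called without DMSO replicate 1 of H226 (−0.32, adjusted p = 0.058, edgeR).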

How the results depend on the processing

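Over 21 alternatives, 583 of 625 recomputed member values kept their direction and their side of the threshold. The H226 calls of UHRF1, DNMT1 and HELLS held in all 15 alternatives of that comparison. The cause of the changes below was not tested. Depth limits TET1 in H226 (4 to 13 counts).

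With DESeq2, 638 genes were called higher in ACHN and 856 more negative in H226 than in ACHN, and 0 members were higher in H226. Leaving out single libraries gave 0 to 1 members higher in H226, 0 to 2 lower and 0 to 1 higher in ACHN, 832 to 1411 genes more negative in H226 than in ACHN, and, under DMSO, 1 to 2 members higher in H226 than in ACHN. Library size alone gave 1 there.

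The labels do not say whether the replicate numbers pair samples, and no shared replicate effect was seen (correlations of deviations −0.10 to 0.06). A replicate block left 3 members lower and 1 higher in H226, 1 lower in ACHN and 3 more negative in H226 than in ACHN, and changed none of their calls.

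The 28 changes of sign all had an adjusted p of at least 0.228. They were TET2 in ACHN (0.0165 under upper-quartile scaling, 0.0216 under library size alone, 0.0399 with the length offset, 0.0398 with block and offset), MBD4 in ACHN (0.0047, library size alone), the difference for TET1 (0.0002 with DESeq2 size factors, 0.0179 under upper-quartile scaling, 0.0079 unfiltered, 0.0243 with the strict filter), and, under DMSO, TET2 (−0.12, library size alone) and DNMT3A (0.0155, length offset). The others came from leaving out single libraries, over which the log2 values ranged −0.178 to 0.0079 (UHRF2, H226), −0.0971 to 0.0143 (HELLS, ACHN), −0.146 to 0.0255 (DNMT3A, ACHN), −0.0170 to 0.170 (TET1, ACHN), −0.0657 to 0.0637 (TET2, ACHN), −0.0585 to 0.0055 (MBD4, ACHN), −0.109 to 0.0784 (difference, UHRF2), −0.576 to 0.333 (difference, TET1) and −0.0204 to 0.109 (TET2, DMSO groups).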
